A study of Mus musculus with 6 samples.

Results

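The cyclic nucleotide phosphodiesterases of families PDE1 to PDE5 were described in embryonic mouse hearts from a mouse model with cardiomyocyte deletion of Rbpms and Rbpms2, which encode a pair of RNA-binding proteins. These enzymes break down cyclic AMP and cyclic GMP, the second messengers that carry beta-adrenergic and natriuretic peptide signals in the heart. PDE1 enzymes are switched on by calcium and calmodulin, PDE2 by cyclic GMP, PDE3 enzymes are inhibited by cyclic GMP, PDE4 enzymes act on cyclic AMP alone and PDE5 on cyclic GMP alone. In cardiomyocytes, PDE3 and PDE4 limit the cyclic AMP that reaches calcium channels, ryanodine receptors and phospholamban, while PDE1, PDE3 and PDE5 are prominent in vascular smooth muscle. The genes were chosen by symbol from the deposited table: Pde1a, Pde1c, Pde2a, Pde3a, Pde3b, Pde4a, Pde4b, Pde4c, Pde4d and Pde5a, which are 10 genes on 11 of its 48709 rows. The choice was made with the genotype comparison of these libraries known, and Pde4c had already stood out in it. The calls and adjusted p of these 10 genes therefore describe them and support nothing further.

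PolyA RNA of hearts from C57BL6/J embryos was sequenced in 6 libraries. The 3 controls, littermates per the series' design text, had the genotype RBPMS flox/flox RBPMS2 flox/flox, without a Cre label. The 3 double knockouts had the same floxed alleles and were labelled XML Cre pos, for a deletion described as cardiomyocyte specific, in hearts that also hold other cells. The labels used here do not give the promoter behind XML Cre, the embryonic day or whether each library is 1 animal, and no group carried Cre alone, so effects of Cre and of the deletion cannot be told apart.

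The libraries had deposited totals of 19770390 to 20215282. Rbpms fell from 3787 ± 210.5 to 697 ± 25.6 and Rbpms2 from 2577 ± 136 to 1454 ± 211 (mean ± SD, n = 3 libraries per genotype). Both libraries numbered 3 had a male pattern, with Xist at 6 and 20 against at least 19501 in the other 4. How far genes lay from their own mean followed GC content, with a Spearman's rho across genes of 0.22 to 0.40 in controls; knockouts 1 to 3 had 0.13, -0.18 and -0.59, so GC content moved with genotype. Of 8 markers per cell type, those of cardiomyocytes, the cells that carry the deletion, summed to 516822 to 580259 in the control libraries. In the knockout libraries they summed to 409884 to 513792, each below each control, with 1 lower, the myosin gene Myh6 (-0.82), and 0 higher. Myh6 (means of 139844 and 79505) made up most of that difference. Tnni3, Actn2, Ryr2, Myh7 and Ttn overlapped between genotypes, with Myh7 at 0.02, while Tnnt2 (-0.17) and Nkx2-5 (-0.29) were apart and not called. The smooth muscle and mural ones summed to 17859 to 18924 in the control libraries, against 9719 to 13436 in the knockout libraries, with 2 lower, Cnn1 (-1.78) and Smtn (-0.49), and 0 higher. Cnn1 (means of 5238 and 1569) and Tagln (6914 and 4708, not called) made up most of that difference. Myh11, Rgs5, Pdgfrb and Cspg4 overlapped between genotypes, and Pdgfrb lay at 0.16. Myh11 (means of 19.7 and 12.0) and Rgs5 (32.7 and 27.3) were low in both genotypes and added little to the sums. The macrophage markers summed to 1224 to 1302 and 1283 to 1563, with 1 higher, the leukocyte gene Ptprc. Among the other cell types, Emcn (0.38, endothelial) and Krt19 (0.56, epicardial) were called higher and Lrrn4 (-0.39, epicardial) lower. The erythroid markers, with a median of 0.65, all overlapped between genotypes and were not called. Fibroblast and neuronal markers were not called either. No marker of the 8 cell types was at 0 in every library. Which cells the reads of a marker came from was not measured, so the sums are not levels of the named cell types. In whole hearts, fewer cells of a type and less RNA per cell cannot be told apart, and the part of these markers in the results below was not tested.

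The PDE4 genes are shown first by the 250 bases before a RefSeq transcription start (GRCm38.p6), read 5′ to 3′, because the member with the greatest genotype difference, Pde4c, is one of them. The other sequences are the only PDE4 windows that held the core TGACG of the cyclic AMP response element, which CREB-family factors bind. Capitals mark that core, which lies on the opposite strand in both and so appears as CGTCA in the printed strand.
Pde4c, chr8:70723814-70724063, plus strand: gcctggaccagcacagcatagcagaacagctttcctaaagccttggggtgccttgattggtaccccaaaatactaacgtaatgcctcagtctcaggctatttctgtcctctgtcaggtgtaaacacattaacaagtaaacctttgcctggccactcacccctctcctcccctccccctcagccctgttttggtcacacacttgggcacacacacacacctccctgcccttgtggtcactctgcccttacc
Pde4a, chr9:21183851-21184100, plus strand: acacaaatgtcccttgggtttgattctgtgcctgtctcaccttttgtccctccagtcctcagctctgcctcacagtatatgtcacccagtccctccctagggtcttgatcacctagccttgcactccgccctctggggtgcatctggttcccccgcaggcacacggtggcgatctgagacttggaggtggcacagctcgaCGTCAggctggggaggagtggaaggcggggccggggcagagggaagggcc
Pde4b, chr4:102421305-102421554, plus strand: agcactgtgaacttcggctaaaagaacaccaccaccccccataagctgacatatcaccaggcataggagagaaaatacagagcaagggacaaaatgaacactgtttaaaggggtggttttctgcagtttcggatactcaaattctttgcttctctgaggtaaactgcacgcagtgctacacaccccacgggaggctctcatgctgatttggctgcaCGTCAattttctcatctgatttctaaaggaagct
Of the 10 genes, 8 had at least 1 such window in the RefSeq table and 22 windows were kept in all. Any window listed under these symbols on a chromosome that holds none of the 10 genes was left out. On either strand, TGACG was in 3 of the 22, from Pde1a, Pde4a and Pde4b, against 17.8% of 32851 windows of the same length. The full element TGACGTCA, which contains that core, was in 0 of the 22 and in 1.55% of all windows. The CArG box bound by serum response factor was in 0 of the 22 and in 1.47% of all windows. A match is a run of letters, and the lack of one concerns these windows alone.

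In control hearts the PDE4 genes Pde4b and Pde4d had the highest levels per kb of their longest transcript. Pde4b was at 184 ± 6.78 normalised reads per kb (mean ± SD, n = 3) and Pde4d, whose product is anchored near ryanodine receptors and beta-adrenergic receptors, at 166 ± 10.7. Their control libraries did not overlap, at 179.6 to 191 and 154 to 173. Next came Pde3b at 91.9 ± 2.99, Pde3a at 90.7 ± 11.0 and Pde4a at 82.8 ± 3.66, a trio in which each neighbour's libraries overlapped. Pde5a (45.6 ± 7.08) and Pde1a (34.4 ± 8.57) also overlapped each other. Pde1c was at 18.0 ± 3.31 and Pde4c at 3.77 ± 1.33, each below all libraries of the gene above it.

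**Figure D1:**
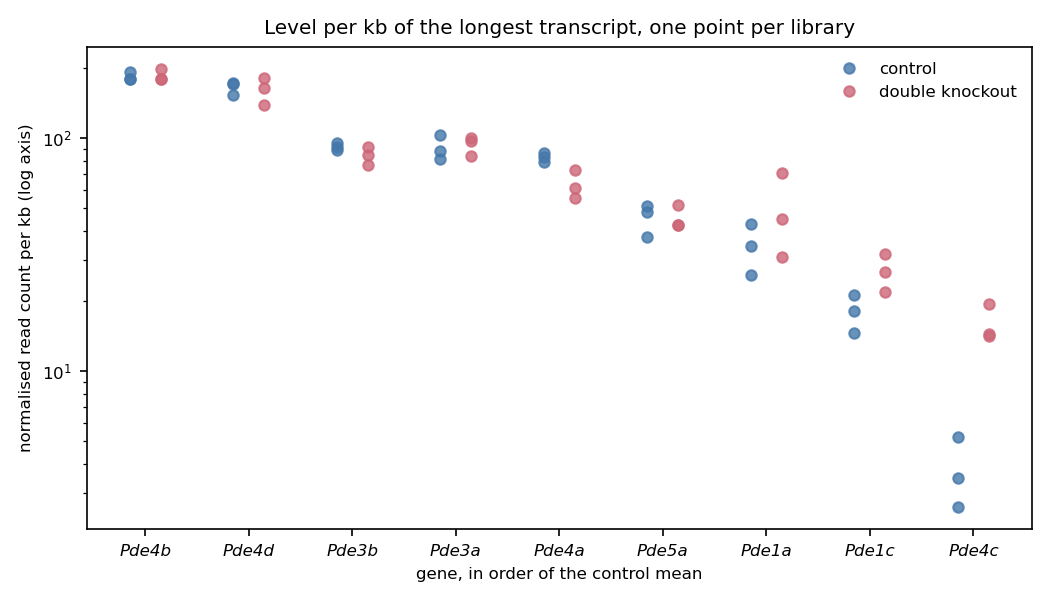
Level of 9 phosphodiesterase genes, as normalised read count per kb of the longest annotated transcript (log axis), with 1 point per library and genes in order of the control mean. Pde4c is the lowest in both genotypes, at 3.77 in controls and 16.0 in knockouts on average, and Pde4b the highest.

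The order at the top depended on the length used. With all annotated exons of a gene together as its length, an alternative added after the data were seen, Pde3a was highest at 87.6 normalised reads per kb in controls, ahead of Pde4b (74.8), Pde3b (66.3) and Pde4d (58.1). Pde4b has 13 annotated transcripts and Pde4d 20, against 2 for Pde3a, and which of them the reads came from was not measured. Pde1c (7.86) and Pde4c (2.32) were below the other 7 genes by either length.

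Pde2a, the cyclic GMP-stimulated enzyme, was listed at 0 to 3 in each library, on both of its rows. Row ENSMUSG00000030653 had 0, 0 and 1 in controls and 0, 1 and 0 in knockouts. Row ENSMUSG00000110195 had 2, 0 and 0 in controls and 3, 1 and 0 in knockouts. In the GENCODE M21 annotation these identifiers are 2 protein-coding models on the same strand of chromosome 7 (101421691 to 101512827 for the second) that share 3955 exon bases, out of 6149 in the second. That annotation names the first Gm45837 and the second Pde2a, while the deposited symbol of both is Pde2a. How reads that fall in both models were counted is not given in the sources used here, so these values do not measure the level of Pde2a and no fold change is given. Only the second row passed the filter of a mean of at least 1 in a genotype, and it was not called (limma adjusted p = 0.739).

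Of the 10 genes, all of which had a row past that filter, 2 were called higher in the double knockout (Pde4c and Pde1c) and 0 lower, at an adjusted p under 0.05 over 26747 tested genes (limma). At an unadjusted p under 0.05, 1 was lower, Pde4a. The share of all tested genes past that unadjusted threshold was not worked out. In all, 4.86% of tested genes were called, 2.31% higher and 2.55% lower. Without the robust option of the fit, 1.31% of tested genes were called, Pde4c alone of these 10 among them. Of protein-coding genes whose mean was 50 or more, a level that 8 of the 10 reach, 8.31% were called. The median log2 fold change of the 10 genes was 0.03, against 0.02 over all tested genes. That median counts the second row of Pde2a, whose values do not measure its level. Values below are normalised read counts. A log2 fold change is the mean log2(value + 1) of knockouts less that of controls, which understates the change of low genes.

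Pde4c (ENSMUSG00000031842, chromosome 8, 70723720 to 70751186, plus strand, mm10) encodes a cyclic AMP-specific enzyme of the PDE4 family. Control libraries 1 to 3 had 18, 9 and 12, and knockout libraries 1 to 3 had 67, 50 and 49. The lowest knockout library was above the highest control library. Pde4c rose from 13 ± 4.58 to 55.3 ± 10.1, a log2 fold change of 2.04 ± 0.28 (SE; 95% interval 1.47 to 2.62; limma adjusted p = 0.000127). Its longest transcript has 57.8% GC, and 1656 expressed coding genes within 2 points of that GC content had a median log2 fold change of -0.12. With each library's trend with GC content and length subtracted, the Pde4c difference was 2.16 (adjusted p = 0.000194). Its exons share no base with another annotated gene. The call was made with each library left out in turn (adjusted p up to 0.00695) and without the robust option (adjusted p = 0.0275), and was lost without both libraries numbered 3, where the difference was 2.10 (adjusted p = 0.136). Of the 8 macrophage markers, Ptprc was called (13.0 in controls and 32.0 in knockouts). Csf1r (0.52) was apart between genotypes and not called, and the other 6 overlapped, with Cd68 at -0.06 and Lyz2 at 0.01. The part of these markers in the Pde4c result was not tested.

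Pde4a (ENSMUSG00000032177, chromosome 9, 21165714 to 21213248, plus strand) encodes another member of the family. It had 369, 403 and 384 in controls and 339, 257 and 284 in knockouts. The genotypes did not overlap, as in 21.7% of all tested genes and 32.6% of expressed coding genes. The log2 fold change of -0.40 ± 0.12 (95% interval -0.64 to -0.16) was just outside the threshold (adjusted p = 0.0508). Pde4a was called lower without double knockout 1 (adjusted p = 0.0220) and not with any other library left out (adjusted p up to 0.199). Its longest transcript has 57.2% GC, genes of like GC content had a median of -0.11, and the difference was -0.30 with the GC and length trend subtracted (adjusted p = 0.0752).

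The abundant PDE4 genes had near-equal values in both genotypes. Pde4b had 774, 824 and 773 in controls and 768, 771 and 852 in knockouts, with a log2 fold change of 0.01 (95% interval -0.17 to 0.20). Pde4d had 720, 728 and 646 in controls and 690, 582 and 759 in knockouts, with a log2 fold change of -0.05 (95% interval -0.27 to 0.17). Libraries of the genotypes overlapped for both. The sign of the difference changed under 6 of the 17 alternatives for Pde4b and under 1 for Pde4d. Adding the 4 PDE4 genes per kb gave 435, 454 and 419 in controls and 435, 387 and 454 in knockouts. Within that sum, Pde4c made up 0.867% ± 0.313 in controls and 3.78% ± 0.668 in knockouts, and Pde4a 19.0% ± 0.744 and 14.8% ± 1.72. These shares rest on the longest transcript as the length and were not worked out for all annotated exons. With that other length the PDE4 sum was 185, 193 and 179 in controls and 186, 164 and 190 in knockouts. Pde4b, Pde4d and Pde4a made up the rest of the sum in both genotypes.

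Pde1c (ENSMUSG00000004347, chromosome 6, 56069804 to 56569103, minus strand) encodes a calmodulin-activated enzyme known from cardiomyocytes and proliferating smooth muscle cells. It had 186, 159 and 128 in controls and 191, 234 and 278 in knockouts. The genotypes did not overlap, but the highest control and the lowest knockout differed by 5. Pde1c rose from 158 ± 29.0 to 234 ± 43.5, a log2 fold change of 0.57 ± 0.16 (95% interval 0.24 to 0.90; adjusted p = 0.0429). The call did not hold with any control, or double knockout 2 or 3, left out (adjusted p up to 0.276) and without the robust option (adjusted p = 0.167). Its longest transcript has 42.9% GC, and 2029 expressed coding genes of like GC content had a median log2 fold change of 0.09. With the GC and length trend subtracted, the difference was 0.45 (adjusted p = 0.0826).

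Pde1a (ENSMUSG00000059173, chromosome 2, 79834453 to 80129458, minus strand), the calmodulin-activated gene best known from vascular smooth muscle, had 147, 183 and 110 in controls and 192, 300 and 131 in knockouts. The genotypes overlapped, and in each of them library 2 was highest and library 3, of male pattern, lowest. The log2 fold change was 0.45 ± 0.34, with a 95% interval from -0.37 to 1.27 (adjusted p = 0.536). It was 0.14 without double knockout 2, 0.26 without control 3 and 0.74 without double knockout 3, uncalled in each. Of the 9 genes other than Pde2a, Pde1a had the widest interval.

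**Figure D2:**
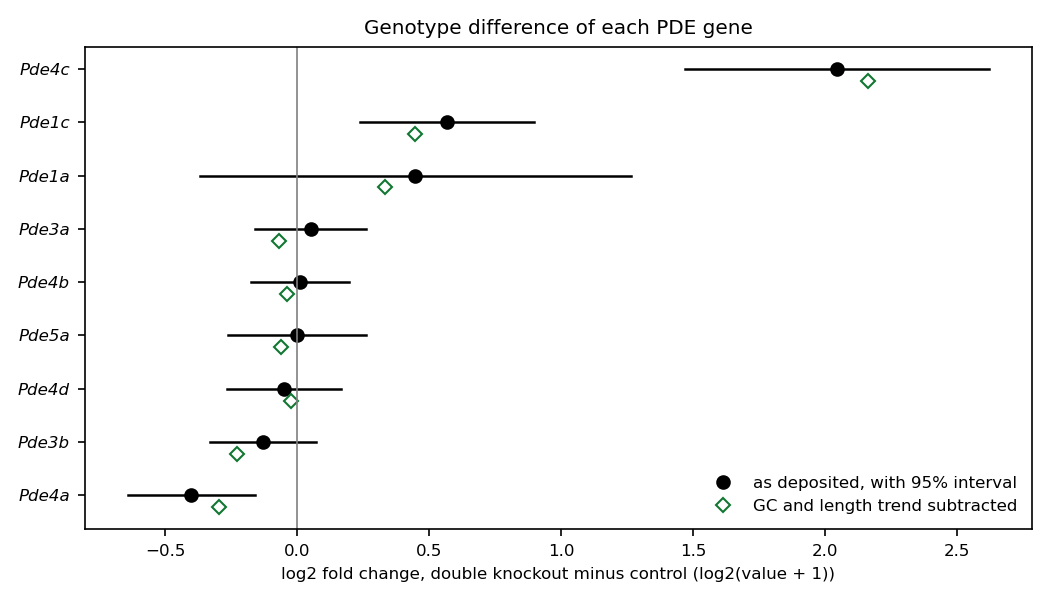
Log2 fold change of 9 genes, double knockout less control in log2(value + 1): filled points with 95% intervals as lines, and diamonds after subtraction of each library's GC and length trend. Pde4c stands at 2.04, and the intervals of Pde3a, Pde3b, Pde4b, Pde4d, Pde5a and Pde1a include 0.

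The PDE3 genes, which encode the cyclic GMP-inhibited enzymes that inhibitors such as milrinone block, overlapped between genotypes. Pde3a had 1084, 1264 and 1000 in controls and 1196, 1233 and 1032 in knockouts, with a log2 fold change of 0.05 (95% interval -0.16 to 0.26). An antisense gene shares 741 exon bases with Pde3a, and whether the counting used strand is not given in the sources used here. Pde3b, also known from fat and pancreatic beta cells, had 601, 625 and 586 in controls and 556, 502 and 602 in knockouts, with a log2 fold change of -0.13 (95% interval -0.33 to 0.07). Pde5a, the cyclic GMP-specific enzyme that sildenafil inhibits, had 367, 388 and 286 in controls and 321, 322 and 393 in knockouts. Its log2 fold change was 0.00 (95% interval -0.26 to 0.26), and a transcript on the other strand shares 55 exon bases with it.

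By family, the per-kb sums overlapped between genotypes for PDE3, at 179.55, 198 and 170.4 in controls and 182, 177 and 175 in knockouts. The sum of Pde1a and Pde1c was 55.7, 61.1 and 40.4 in controls and 66.9, 97.1 and 62.5 in knockouts, each knockout above each control. With all annotated exons as the length, an alternative added after the data were seen, that sum was 33.7, 38.4 and 24.7 against 41.5, 61.6 and 35.6, and knockout 3 lay below control 2. The 9 genes without Pde2a summed to 717 ± 48.1 in controls and 724 ± 20.02 in knockouts, a ratio of 1.01.

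The genes most like Pde4c and Pde4a over the 6 libraries were found by the mean absolute difference of log2(value + 1), each gene centred on its mean, among the 11913 protein-coding genes whose mean was 50 or more. For Pde4c these were C430049E01Rik (0.25), the collagen gene Col20a1 (0.25) and Unc13c (0.29), a synaptic vesicle priming factor. Col20a1 had 24, 21 and 24 in controls and 100, 66 and 86 in knockouts. For Pde4a they were Man1c1 (0.02), a mannosidase gene, Egln1 (0.03), an oxygen-sensing prolyl hydroxylase gene, and Srebf2 (0.03), a regulator of sterol synthesis.

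The remaining cyclic nucleotide pathway was covered by 5 lists of 88 genes, picked by function with earlier results of these data known. Of 86 tested, 7 were higher and 7 lower, which is 16.3%, against the 4.86% of all tested genes and the 8.31% of expressed coding genes given above. Their median log2 fold change was -0.04. Of the 14 calls, 5 were also made with each library left out in turn (Adcy1, Adcy5, Adcy7, Chrm2 and Hcn4), 3 without the robust option (Adcy5, Gnai2 and Hcn4) and 12 with the GC and length trend subtracted. None was made without both libraries numbered 3, where 38 genes in all were called, and where 9 of the pathway genes were higher and 14 lower at an unadjusted p under 0.05 (limma). The share of all tested genes past that unadjusted threshold was not worked out, so the 9 and 14 have no background beside them.

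Among the makers of cyclic AMP and cyclic GMP, 1 of 19 tested genes was higher and 2 were lower, with a median of -0.05. Adcy5, a major cardiac adenylyl cyclase, had 1688, 2031 and 1761 in controls and 1083, 820 and 916 in knockouts and fell by 0.96 on the log2 scale (adjusted p = 9.68e-06). Adcy1, a calmodulin-stimulated cyclase, had 721, 837 and 796 in controls and 492, 315 and 455 in knockouts and fell by 0.92 (adjusted p = 0.00173). For both, each knockout library was below each control library. Adcy7 rose from 194 ± 8.33 to 335 ± 66.4 (0.77, adjusted p = 0.00145). Adcy6, the other main cyclase of cardiomyocytes, named here outside the rule once its values were known, was at 5932 ± 201 in controls and 5545 ± 772 in knockouts (-0.11, 95% interval -0.31 to 0.09).

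**Figure D3:**
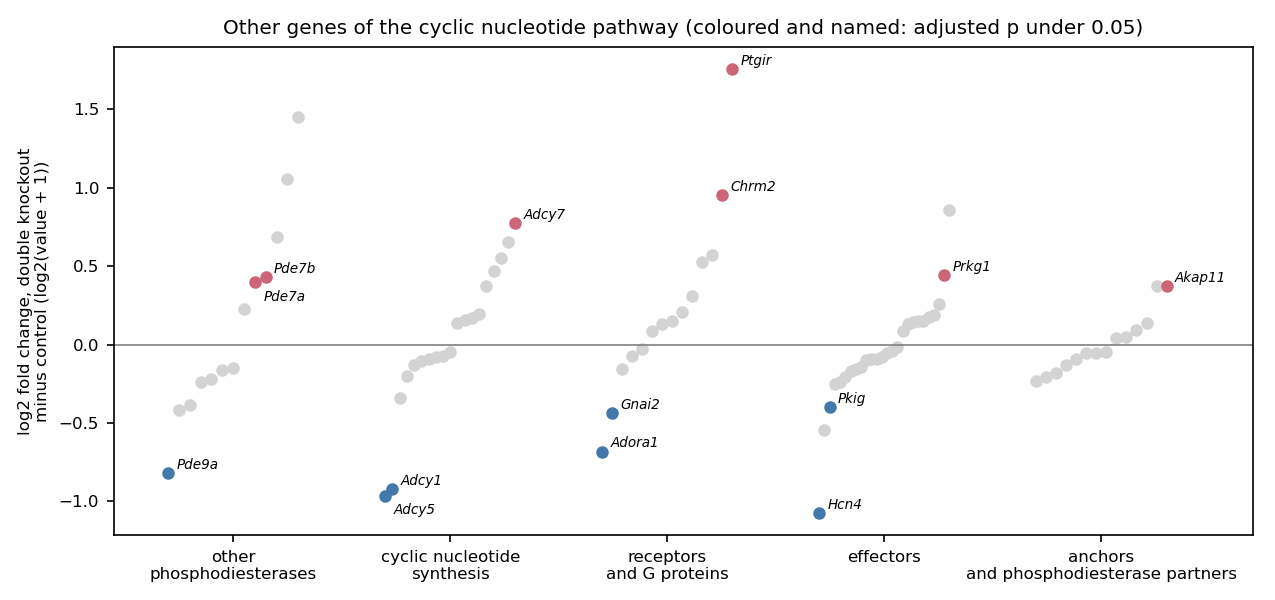
Log2 fold change (double knockout less control, in log2(value + 1)) of each tested gene in 5 lists of the cyclic nucleotide pathway, with 1 point per gene. Coloured and named points are the 7 genes called higher and the 7 called lower; Adcy5, Adcy1 and Hcn4 lie near -1.

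Of the receptors and G proteins, 2 of 14 tested were higher and 2 lower, with a median of 0.14. Chrm2, the muscarinic receptor that slows the heart, had 169, 265 and 185 in controls and 330, 418 and 441 in knockouts and rose by 0.96 (adjusted p = 0.00269). Gnai2, an inhibitory G protein subunit, fell from 6803 ± 325 to 5023 ± 335 (-0.44, adjusted p = 0.00400), a call lost without control 3 (adjusted p = 0.0548). Adora1 (-0.68), an adenosine receptor, fell and Ptgir (1.76), the prostacyclin receptor, rose from 1.67 ± 1.15 to 7.67 ± 2.08. The log2 fold change of Ptgir was 2.01 with 0.5 added before the log and 0.93 with 5 added, and it was not tested at a mean of at least 10. Each of these last calls was made with only 1 of the 6 libraries left out, control 2 for Ptgir and double knockout 1 for Adora1.

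Of the effectors, 1 of 26 tested was higher and 2 were lower, with a median of -0.07. Hcn4, the pacemaker channel that binds cyclic AMP, had 811, 657 and 837 in controls and 447, 294 and 363 in knockouts and fell by 1.07 (adjusted p = 0.000367). Pkig (-0.40), an inhibitor of protein kinase A, fell and Prkg1 (0.44), the cyclic GMP-dependent kinase, rose. Of the 14 anchors and partners reported, which had a median of -0.05, Akap11 (0.37), an anchor of protein kinase A, was the 1 gene called, and it rose. With the GC and length trend subtracted, 2 were called higher and 2 lower: Akap11 and Akap6 (adjusted p = 0.0319) higher, and Akap5 (adjusted p = 0.0279) and Akap9 (adjusted p = 0.0233) lower. That setting called 1582 of all tested genes, against 1299 in the main fit. The calls of Pkig, Prkg1 and Akap11 were each lost when control 1, control 3 or double knockout 3 was left out, and that of Pkig also when double knockout 1 was; the highest adjusted p were 0.148, 0.102 and 0.193.

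Among other phosphodiesterases, PDE6 to PDE11 and Pde1b, 2 of 13 tested were higher and 1 lower, with a median of -0.15. Pde7a, cyclic AMP-specific, had 697, 699 and 627 in controls and 874, 843 and 946 in knockouts and rose by 0.40 (adjusted p = 0.0147). Pde7b rose from 434 ± 48.8 to 587 ± 91.3 (0.43, adjusted p = 0.0430) and Pde9a, which acts on cyclic GMP, fell from 75.3 ± 10.6 to 43.3 ± 13.2 (-0.82, adjusted p = 0.0409). The calls of Pde7a, Pde7b and Pde9a were lost when control 1, control 3 or double knockout 3 was left out, that of Pde7b also when double knockout 2 was, and that of Pde9a also when control 2 or double knockout 1 was; the highest adjusted p were 0.129, 0.273 and 0.189. Of the called genes in these lists, the higher ones Pde7a, Pde7b, Prkg1, Akap11 and Chrm2 have 41.5% to 43.9% GC in the longest transcript, Adcy7 and Ptgir 52.4% and 54.5%, and the 7 lower ones 51.1% to 59.5%. With the GC and length trend subtracted, 8 genes of the 5 lists were called higher and 9 lower: 5 calls were gained (Npr2, Prkacb, Akap5, Akap6 and Akap9), and the calls of Pde7b (adjusted p = 0.0795) and Pde9a (adjusted p = 0.0632) were lost. Over all 26747 tested genes, 1582 were called under that setting, against 1299 without the subtraction.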

How the data were processed

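PolyA RNA of 3 control and 3 double knockout hearts was read as single ends of 75 bp after a stranded library preparation, per the labels' protocols. Tools listed without role or order in the submitters' processing notes are featureCounts 1.5.0, STAR 2.4.2a, Trimmomatic, DESeq and DESeq2, with the build mm10; how strand and shared reads were treated is not given in the sources used here. What the authors deposited is a score for each gene and library, to judge from the values: counts divided by a library factor, then rounded. No count model was therefore used.

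The test was that of limma 3.58.1 (R 4.3.3), two-sided, over the 26747 genes with a mean of at least 1 in a genotype, on values logged to base 2 after adding 1, with a variance trend, robust moderation and Benjamini-Hochberg adjustment over all tested genes. P-values set the genotype difference against the spread between libraries, part of which may be technical. That spread also takes in sex, since in each genotype library 3 alone had a male pattern. Coordinates, lengths and GC content came from GENCODE M21 (GRCm38, the assembly of mm10), which holds 99.3% of the identifiers. The 10 genes and the 5 lists were chosen with earlier results of these data known. Named by rule were all 10 genes, up to 5 called genes of each list and the 3 genes most like the members with the highest and lowest log2 fold change. Older symbols matched 2 list entries, and 1 further list entry is not reported here.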

Additional observations from a re-analysis of the deposited data

How the results depend on the processing

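Pde4c was higher in the knockout under all 17 alternatives, at 1.76 to 2.29 on the log2 scale, and its call was lost under 1 of them, without both libraries numbered 3. Pde1c was higher under all 17 (0.30 to 0.71), but its call was lost under 10, the cause of which was not tested. Pde4a lay below 0 under all 17 (-0.51 to -0.30) and was called under 3: without a filter, with a mean of at least 10, and without double knockout 1.

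The count of the 10 genes called higher was 1 without the robust option, with a mean of at least 10, and with the GC and length trend subtracted, alone or with the replicate block. The count called lower was 1 without a filter and 1 with a mean of at least 10. Leaving out 1 library gave 1 to 2 higher and 0 to 1 lower, 2 to 8 and 3 to 6 in the pathway lists, and 420 to 1253 among all genes. Without the robust option 350 genes were called in all, and 0 pathway genes were higher and 3 lower (11 and 14 at an unadjusted p under 0.05, limma). Without both libraries numbered 3, 38 genes were called, 0 of the 10 genes (2 higher and 1 lower at an unadjusted p under 0.05, limma) and 0 pathway genes in either direction. For none of these unadjusted counts was the share of all tested genes worked out, so they are not evidence of a remaining difference.

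The log2 fold change of Pde5a was 0.00507 and 0.00384 with median-of-ratios and trimmed-mean rescaling. With 1 library left out, it ranged from -0.134 to 0.0852 for Pde5a, from -0.0378 to 0.0414 for Pde4b, from -0.137 to 0.0541 for Pde4d, from -0.0252 to 0.144 for Pde3a, from -0.192 to -0.0615 for Pde3b and from 0.143 to 0.737 for Pde1a. With the GC and length trend subtracted, with or without the replicate block, Pde4b was at -0.0372, Pde3a at -0.0700 and Pde3b at -0.230. Without both libraries numbered 3, Pde5a was at -0.230, Pde3b at -0.214, Pde4d at -0.192, Pde4b at -0.0535, Pde3a at 0.0530 and Pde1a at 0.547. None of these passed the threshold.

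Levels per kb in controls by all exons were 74.8 (Pde4b), 58.1 (Pde4d), 66.3 (Pde3b), 50.3 (Pde4a), 35.3 (Pde5a), 24.4 (Pde1a), 7.86 (Pde1c) and 2.32 (Pde4c). Same-numbered libraries deviated from their genotype means with correlations across genes of 0.09, 0.11 and 0.37, so the numbers were not taken as pairs. With the replicate block 1355 genes were called, 2 of the 10 genes higher and 0 lower, and the same 14 pathway genes; control 1 correlated best with knockout 2 and not with its own number. At 9 to 18 reads in controls, Pde4c carries the spread of small counts.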
